A study of Mus musculus with 9 samples.

Results

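Krt20 and 8 other genes of epithelial cells and their filaments were read in granulosa cells of the mouse, which line the ovarian follicle, nurse the oocyte and were grown here in culture. The 9 genes were 5 keratins (Krt20, Krt7, Krt8, Krt18 and Krt19), the mesenchymal filament gene Vim, the adhesion gene Cdh1 and the uroplakins Upk1b and Upk3b, out of 18193 genes named on the array. Every probe set whose only gene symbol in the platform annotation was that of a member was taken, which gave 17 of 45037 tested probe sets. The members were chosen by measured values: Krt20 had been singled out because it was lower on the arrays labelled WNT4 than on the GFP arrays. The members' values in that comparison are therefore a description with no test, as are all values of Krt20. Genes that are not members were tested in all 3 comparisons.

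RNA was measured on 9 Affymetrix mouse arrays in 3 groups of 3, named WNT4, Cre and GFP for the protein that the adenovirus expressed. In all groups the granulosa cells came from mice aged 20 to 26 days, 48 h after equine chorionic gonadotrophin (eCG), a hormone that drives follicle growth, and were infected for 24 h without serum at a multiplicity of infection of about 50. The WNT4 virus overexpresses the secreted ligand WNT4, the Cre virus expresses a recombinase that acts on floxed alleles of Ctnnb1 (the beta-catenin gene), and the eGFP virus is the control. The mice are labelled as being of various genotypes, and the genotype behind each group is not stated, nor whether Cre removes or stabilises beta-catenin. Replicates are called biological, but nothing says that each had its own animals or its own culture. A p-value here reflects only how far these samples lay apart. All values are on the log2 scale, as robust multi-array averages (RMA). They carry no detection call, the value of 1 probe set cannot be set against that of another, and their precision is limited by the small number of arrays.

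The target genes did not clearly bear out the labels. The brighter probe set of Wnt4 read 8.97, 9.89 and 9.16 on the arrays labelled WNT4, 11.25, 10.47 and 10.18 on those labelled Cre, and 9.93, 9.16 and 9.13 on those labelled GFP. Its highest values were thus on the arrays labelled Cre, and WNT4 differed from GFP by -0.07. The other probe set of Wnt4 read 9.91, 9.62 and 8.36 on WNT4, 10.01, 9.81 and 9.05 on Cre, and 9.13, 7.57 and 8.27 on GFP. It differed by 0.97 between WNT4 and GFP (adjusted p = 0.447, limma), with overlapping groups, and was also highest on average on Cre. Whether either probe set reads the transcript made by the WNT4 virus is not known here. The 3 probe sets of Ctnnb1 differed by 0.04, 0.10 and 0.20 between Cre and GFP, and whether they lie in a part that Cre deletes is not known here. Between WNT4 and GFP they differed by 0.53, 0.48 and 0.53 (adjusted p from 0.350 to 0.417, limma). Every direction below is therefore that of the arrays as labelled. All 14 granulosa markers, such as Foxl2 and Fshr, read above the median of each of the 9 arrays.

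Keratins are the filament proteins of epithelial cells. A filament needs a type I keratin, such as KRT18, KRT19 or KRT20, paired with a type II keratin, such as KRT7 or KRT8. KRT8 and KRT18 are the pair of simple epithelia and are also found in granulosa cells and oocytes, whereas KRT20 is known best from the intestinal lining, the umbrella cells of the bladder and Merkel cells. Granulosa cells also hold vimentin, and the ovary's surface epithelium is known for KRT7, KRT19 and the uroplakins.

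The promoters of the 3 keratins that carry the results are shown because Krt20 differed between the groups while Krt8 and Krt18, which pair in the same filaments, overlapped between them. Each is the stretch of 250 bases before the annotated start, read 5′ to 3′ on the gene's own strand (RefSeq, GRCm38.p6), at chr11:99438154-99438403 on the minus strand for Krt20, chr15:102004343-102004592 on the minus strand for Krt8 and chr15:102027966-102028215 on the plus strand for Krt18. Capitals mark every match, on either strand, to TATAAA (the TATA box), GGGCGG (SP1), CACCC (the Kruppel-like and SP factors), CTTTGT or CTTTGA (the TCF/LEF core), TGANTCA (AP-1) and CAGGTG (the E-box bound by Snail factors).
Krt20: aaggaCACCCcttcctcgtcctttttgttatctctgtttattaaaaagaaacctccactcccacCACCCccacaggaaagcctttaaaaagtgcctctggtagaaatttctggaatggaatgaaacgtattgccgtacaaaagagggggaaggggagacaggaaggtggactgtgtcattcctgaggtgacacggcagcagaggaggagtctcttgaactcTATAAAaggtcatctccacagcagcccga
Krt8: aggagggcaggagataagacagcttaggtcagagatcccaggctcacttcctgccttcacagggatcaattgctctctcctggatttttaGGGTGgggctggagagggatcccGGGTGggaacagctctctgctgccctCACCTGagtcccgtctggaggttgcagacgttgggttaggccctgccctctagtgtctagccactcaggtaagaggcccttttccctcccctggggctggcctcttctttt
Krt18: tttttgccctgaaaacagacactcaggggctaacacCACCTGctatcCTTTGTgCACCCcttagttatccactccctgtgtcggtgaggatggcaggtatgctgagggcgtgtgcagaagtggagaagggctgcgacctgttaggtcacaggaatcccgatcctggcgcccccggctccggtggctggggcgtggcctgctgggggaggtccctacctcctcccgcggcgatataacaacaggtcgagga

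The Krt20 promoter held TATAAA with its first base at -29 from the start, a motif found in 13.6% of the 32851 promoter windows of 300 bases, and CACCC at -245 and -186, which 57.5% of windows hold. In the Krt8 promoter CACCC was read on the other strand at -160 and -137 and CAGGTG at -111. Matches to TATAAA on both strands there lay across the annotated start and are not printed. The Krt18 promoter held CAGGTG on the other strand at -214, CTTTGT at -203 and CACCC at -196. CAGGTG occurred in 20.2% of windows and CTTTGT in 18.7%. The SP1 and AP-1 motifs and CTTTGA were in none of the 3 windows. Of the 9 members, 6 were matched in the promoter table, which also held Krt7, Vim and Upk3b. On the same assembly Krt7, Krt8 and Krt18 lie on chromosome 15, Krt20 and Krt19 on chromosome 11, Vim on 2, Upk3b on 5, Cdh1 on 8 and Upk1b on 16.

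Krt20, a type I keratin, was lower on the arrays labelled WNT4 and on those labelled Cre than on the GFP arrays, and lowest on WNT4. Its single probe set read 5.51, 5.26 and 5.82 on the arrays labelled WNT4, 6.20, 6.56 and 6.56 on those labelled Cre, and 7.44, 7.46 and 7.80 on those labelled GFP. No group overlapped another. The means were 5.53 ± 0.28, 6.44 ± 0.21 and 7.57 ± 0.20 in the same order (SD, n = 3 arrays each). The WNT4 arrays thus stood at 0.243 times the GFP level (log2 difference -2.04 ± 0.17, SE) and the Cre arrays at 0.456 times it (-1.13 ± 0.17), on the scale of these array values. Between the arrays labelled WNT4 and Cre the difference was -0.91 ± 0.17.

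On the arrays labelled WNT4 the signal of Krt20 came close to the array medians, which were 5.44, 5.49 and 5.49 on WNT4 1, 2 and 3. WNT4 2 lay below its own. Whether any of that signal is background cannot be read from RMA values. An order with all 3 groups apart, WNT4 lowest and GFP highest, was found at 54 probe sets (0.12%), Krt20 among them, and the opposite order at 193 (0.429%). The choice of Krt20 partly fixed this order, so nothing is read from these shares. In these mixed cultures, fewer cells with a transcript and less of it per cell cannot be told apart.

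**Figure D1:**
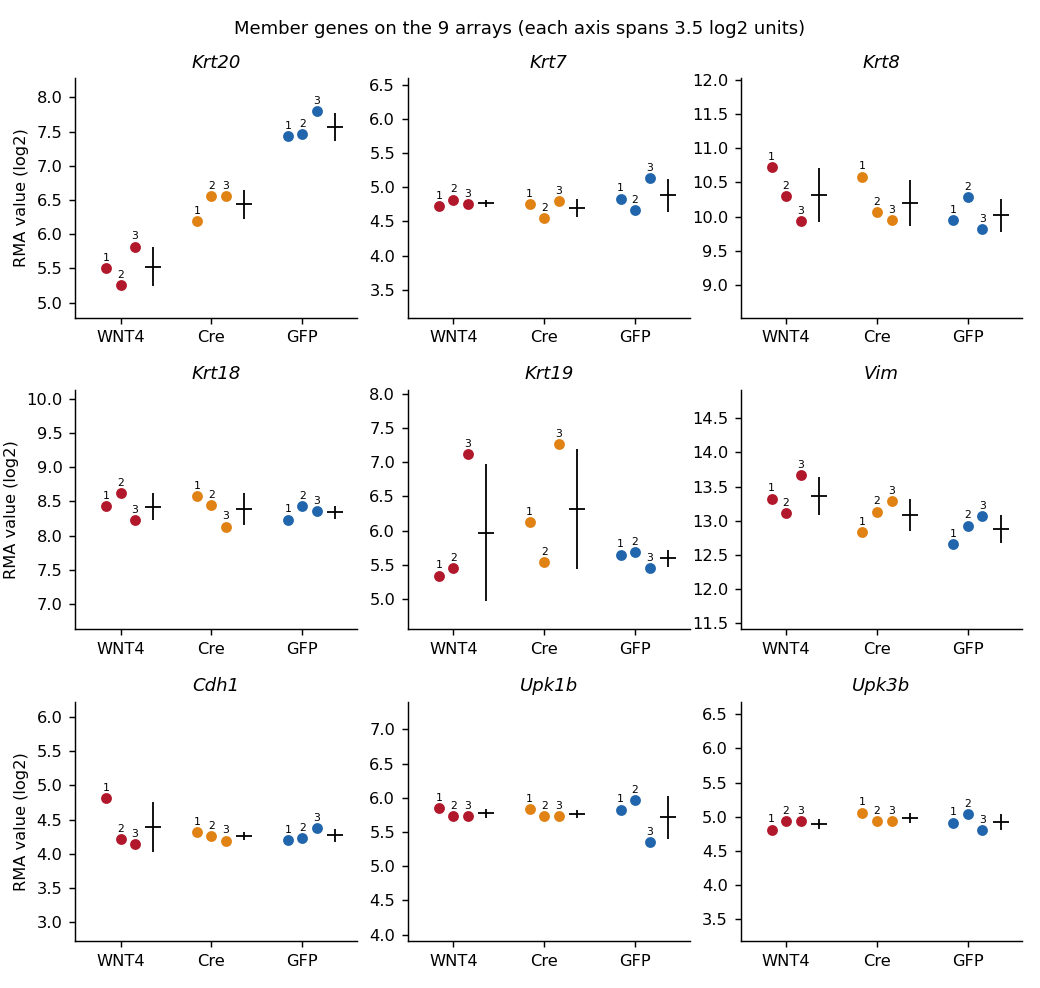
The RMA value (log2) of each member gene on the 9 arrays, from the gene's probe set with the highest mean, with the arrays labelled WNT4, Cre and GFP from left to right, the replicate number above each point, and the mean and SD as a bar. Krt20 steps up between the groups without overlap, Krt19 is high on WNT4 3 and Cre 3 (7.12 and 7.27), and the groups of the keratins Krt8, Krt18 and Krt7 overlap.

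None of the other members passed the test. In Cre against GFP, limma called 0 of 45037 probe sets at an adjusted p under 0.05 (0%), with 1006 at an unadjusted p under 0.05 (2.23%). The 16 member probe sets tested there all had an adjusted p of 1.00. In WNT4 against Cre 0 were called as well (0%), with 2808 (6.23%) at an unadjusted p under 0.05, and the members had adjusted p from 0.773 to 1.00. Both comparisons share arrays with the one that chose Krt20. In WNT4 against GFP 7 probe sets were called (0.0155%) and 5870 had an unadjusted p under 0.05 (13%). Krt20 was the member among the 7. That comparison had chosen it, so nothing is read from this count.

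Groups that did not overlap were counted in the same way. Between Cre and GFP they were found at 2 of 17 member probe sets, both lower (Krt20 and 1 of 4 probe sets of Upk1b), where 6.02% of all probe sets did not overlap (2.98% higher, 3.04% lower). Between WNT4 and Cre they were found at 3 of 17, all lower, where 8.23% of all did not overlap (5.38% higher, 2.85% lower). Those 3 were Krt20, another probe set of Upk1b and 1 of the 2 of Upk3b. Between WNT4 and GFP 3 were lower (the same 3) and 2 higher (probe sets of Vim), where 14.8% of all probe sets did not overlap (9.28% higher, 5.49% lower). Krt20, which the comparison of WNT4 with GFP chose, is in each of these counts, so nothing is read from any of them. The Upk1b and Upk3b probe sets counted were below the array median on all 9 arrays. The median difference of the 17, Krt20 included, was 0.09 for WNT4 against GFP, 0.06 for Cre against GFP and 0.04 for WNT4 against Cre, beside medians over all probe sets of -0.00, -0.02 and 0.02.

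**Figure D2:**
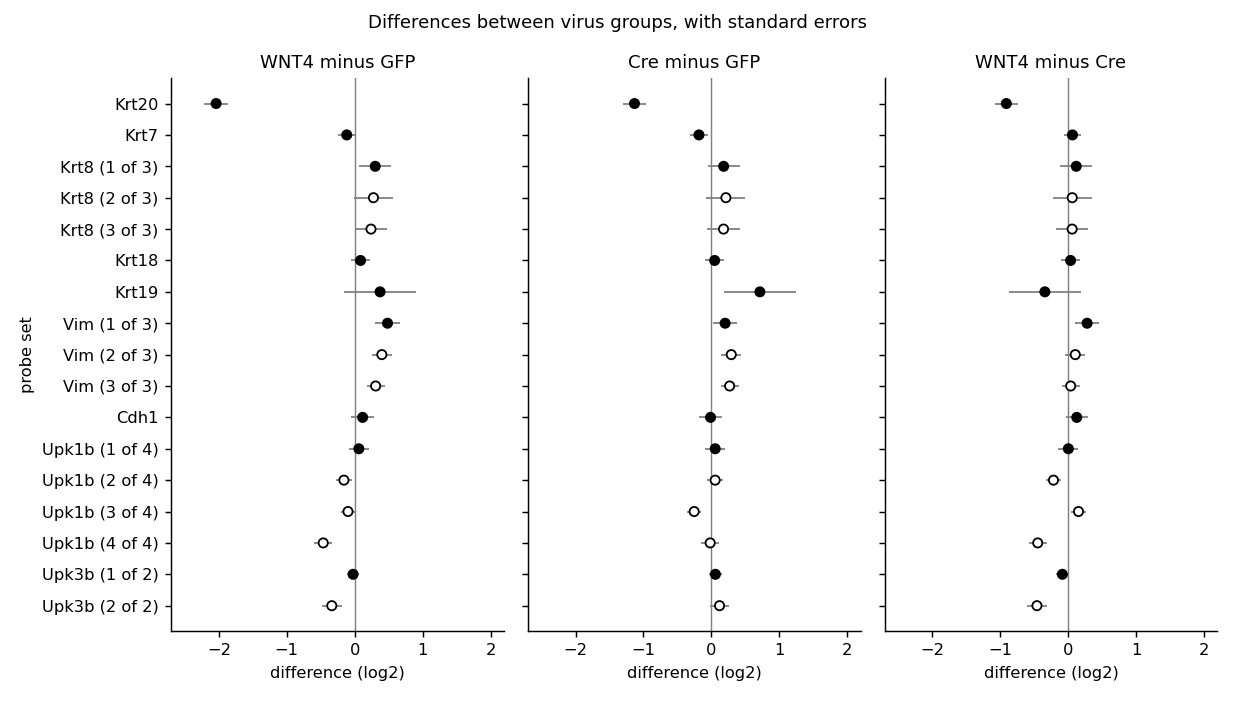
Differences between groups on the log2 scale for the 17 member probe sets, 1 panel for each comparison, with the model's standard error as a bar. Filled points are the probe set of each gene with the highest mean. Krt20 stands at -2.04, -1.13 and -0.91 in the 3 panels, and the other 16 probe sets lie between -0.46 and 0.71.

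Krt8, the type II keratin of simple epithelia, varied between replicates more than between groups. Its brightest probe set read 10.73, 10.30 and 9.94 on the arrays labelled WNT4, 10.59, 10.07 and 9.95 on Cre, and 9.95, 10.29 and 9.82 on GFP. The groups overlapped, with WNT4 1, Cre 1 and GFP 2 the highest of their groups. Cre differed from GFP by 0.18 ± 0.23 (SE, 95% interval -0.35 to 0.71) and WNT4 differed from Cre by 0.12 ± 0.23 (-0.41 to 0.65). The WNT4 mean lay 0.30 ± 0.23 above GFP. All 3 probe sets of Krt8 followed each other across the arrays, with Pearson r from 0.981 to 0.991, and gave differences of 0.24 to 0.30 for WNT4 against GFP. After quantile normalization those were 0.05, 0.03 and -0.00, and WNT4 against Cre was -0.08, -0.14 and -0.13. The size of the differences, and the sign of WNT4 against Cre, thus depended on the scaling.

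Krt18, the type I partner of Krt8, overlapped between the groups. It read 8.43, 8.63 and 8.22 on the arrays labelled WNT4, 8.58, 8.45 and 8.13 on Cre, and 8.23, 8.43 and 8.36 on GFP. The whole range over 9 arrays was 8.13 to 8.63. Cre differed from GFP by 0.05 ± 0.14 (SE, 95% interval -0.28 to 0.37) and WNT4 from Cre by 0.04 ± 0.14 (-0.29 to 0.36).

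Across the 9 arrays Krt8 and Krt18 had a Pearson r of 0.65 (exact permutation p = 0.0589, two-sided, adjusted p = 0.177 over 3 pairs) and a Spearman rho of 0.68 (exact permutation p = 0.0503, adjusted p = 0.151). Without WNT4 1 and Cre 1, the arrays farthest from the median of Krt8, r was 0.73 (exact permutation p = 0.0756, n = 7). The deviations from the group means had an r of 0.63. The pair did not pass the test, before or after adjustment. Krt7 with Krt19 had an r of -0.07 (exact permutation p = 0.827, adjusted p = 0.827) and a rho of -0.06 (exact permutation p = 0.887, adjusted p = 0.887), and r was 0.11 without GFP 3 and Cre 2 (exact permutation p = 0.810, n = 7). For Krt8 with Krt20 no pooled value is given because Krt20 falls into 3 separate groups of 3 arrays. Their deviations from the group means had an r of -0.69, which is a description.

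Several of the genes most like Krt8 are known from the oocyte. The genes whose pattern over the 9 arrays was most like that of Krt8, chosen after its values were seen, were Perp (r = 0.966), Mos (0.953), Padi6 (0.952), Astl (0.952), Dppa3 (0.943) and Cpsf4l (0.941), out of 1645 probe sets with a gene name, a mean of at least 6 and an SD of at least 0.5. MOS holds eggs at metaphase, PADI6 belongs to the egg's cytoplasmic lattices, ASTL is the egg protease ovastacin, and DPPA3 is a maternal factor of the early embryo. PERP is a tetraspan protein of desmosomes and a p53 target. The other probe set of Cpsf4l had an r of -0.107 with Krt8. Least like Krt8 were Naalad2 (r = -0.991), Cyp1b1 (-0.961) and Ociad2 (-0.953).

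A list of 10 oocyte markers averaged 7.55, 6.42 and 6.24 on WNT4 1, 2 and 3, 7.07, 6.72 and 6.16 on Cre 1, 2 and 3, and 6.15, 6.80 and 6.04 on GFP 1, 2 and 3. The order of the arrays was that of Krt8 within all 3 groups, and that of Krt18 within 1. Perp, not on that list, also had the order of Krt8 within all 3 groups. It had been chosen for its likeness to Krt8, so nothing is read from its order. Gdf9, Ooep and the zona genes Zp1, Zp2 and Zp3 were above the array median on all 9 arrays, and Bmp15 and Ddx4 were below it on all 9. Of the 10 markers, Zp1, Zp2, Zp3 and Gdf9 had the order of Krt8 within all 3 groups. Ooep, Nlrp5, Bmp15, Dazl, Ddx4 and Figla did not. Ooep read 7.49, 8.30 and 7.57 on GFP 1, 2 and 3. Nlrp5 read 7.44, 5.70 and 5.88 on WNT4 1, 2 and 3. Dazl, below the median on 8 of 9 arrays, was highest on Cre 2. The part of oocyte RNA in the Krt8 values was not tested.

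Krt19, a type I keratin that pairs with KRT7 or KRT8, was high on 2 arrays of different groups. It read 5.34, 5.45 and 7.12 on the arrays labelled WNT4, 6.12, 5.54 and 7.27 on Cre, and 5.65, 5.68 and 5.46 on GFP. WNT4 3 and Cre 3 were high, Cre 1 was slightly above the rest, and the groups overlapped. The difference was 0.71 ± 0.52 for Cre against GFP (SE, 95% interval -0.48 to 1.91), -0.34 ± 0.52 for WNT4 against Cre and 0.37 ± 0.52 for WNT4 against GFP. Without Cre 3 and WNT4 3, a fit chosen after the values were seen, these became 0.24 ± 0.18, -0.44 ± 0.20 and -0.20 ± 0.18, so the sign of WNT4 against GFP rested on WNT4 3. In the fit blocked by replicate, WNT4 against Cre was -0.34 ± 0.39, and each WNT4 array read below the Cre array of the same number.

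The genes most like Krt19 were high on the same arrays. They were Pdxp (r = 0.970), a phosphatase of vitamin B6 and of cofilin, Ddit4 (0.966), a stress-induced inhibitor of mTORC1, Ier3 (0.960), an immediate early gene, Rgs11 (0.959), a regulator of G proteins, Celf2 (0.952), an RNA-binding protein, and Stc1 (0.951), the secreted hormone stanniocalcin. They too were chosen after the values were seen. The other probe sets of Celf2 had r from -0.289 to 0.893 with Krt19, and that of Stc1 0.742. Ddit4 read 9.23, 8.67 and 11.44 on WNT4 1, 2 and 3, 10.28, 9.02 and 11.48 on Cre 1, 2 and 3, and 9.43, 9.53 and 9.52 on GFP 1, 2 and 3. The part of whatever sets WNT4 3 and Cre 3 apart in the Krt19 values was not tested.

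Vim, which encodes the intermediate filament of mesenchymal cells, had higher means on the arrays labelled WNT4 as deposited. Its brightest probe set read 13.32, 13.11 and 13.66 on the arrays labelled WNT4, 12.83, 13.13 and 13.29 on Cre, and 12.66, 12.93 and 13.06 on GFP. Every WNT4 array lay above every GFP array there. The 3 probe sets gave differences of 0.48, 0.40 and 0.31 for WNT4 against GFP. Those were 0.53, 0.44 and 0.35 after centring on the median, 0.33, 0.25 and 0.16 after centring on the 75th percentile, and 0.01, 0.02 and -0.05 after quantile normalization. The size of this difference thus depended on the scaling, and the sign of the third probe set did. WNT4 against Cre was 0.28, 0.11 and 0.04 as deposited and -0.07, -0.17 and -0.24 after quantile normalization. There the sign of each probe set depended on the scaling. Cre differed from GFP by 0.20 ± 0.18, 0.29 ± 0.15 and 0.27 ± 0.13 (SE), none passing the test.

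Krt7, Cdh1 and most uroplakin probe sets read low on every array. Krt7, the type II keratin of ducts and surface epithelium, lay below the array median on all 9 arrays, at 4.72 to 4.82 on WNT4, 4.54 to 4.80 on Cre and 4.67 to 5.14 on GFP. Cdh1, the epithelial cadherin, was below the median on all 9 arrays too. It read 4.81, 4.21 and 4.14 on the arrays labelled WNT4, 4.20 to 4.32 on Cre and 4.21 to 4.38 on GFP. WNT4 1 was the highest of the 9 for Cdh1. The 95% interval of the difference for Cre against GFP was -0.48 to 0.11 for Krt7 and -0.39 to 0.36 for Cdh1.

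The uroplakins are membrane proteins of the bladder lining that also mark mesothelium. Both probe sets of Upk3b and 3 of the 4 of Upk1b were below the array median on all 9 arrays, and the remaining Upk1b probe set read 5.35 to 5.96. The probe sets of Upk1b did not follow each other, with r from -0.44 to 0.73. Its dimmest probe set read 4.37, 4.33 and 4.61 on the arrays labelled WNT4, 4.90, 4.79 and 4.96 on Cre, and 4.65, 5.08 and 4.96 on GFP. WNT4 was the lowest group there, by 0.45 ± 0.13 under Cre (SE, adjusted p = 0.773, limma), without overlap. The second Upk3b probe set read 4.49, 4.64 and 4.67 on WNT4, 5.41, 4.88 and 4.88 on Cre, and 4.92, 5.01 and 4.88 on GFP, with WNT4 0.46 ± 0.14 under Cre (adjusted p = 0.773, limma). Neither passed, and the first probe set of each gene differed by 0.00 ± 0.15 and -0.08 ± 0.09.

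On each array Krt8 and Krt18 read above the array's own median, while Cdh1, Krt7, Upk3b and most Upk1b probe sets read below it. These positions describe single probe sets and do not rank the genes. Of 14 further markers of surface epithelium and mesothelium, 4 (Muc16, Lrrn4, Gpm6a and Cldn15) were below the array median on all 9 arrays and 6 above it on all 9, among them Aldh1a1, a retinoic acid enzyme, and Igfbp5, which binds insulin-like growth factors. The list averaged 6.43 to 6.62 on WNT4, 6.58 to 6.75 on Cre and 6.60 to 6.76 on GFP. At an unadjusted p under 0.05, 2 were higher and 2 lower in WNT4 against GFP, where 9.12% of all probe sets were higher and 3.91% lower, and none passed after adjustment. Aldh1a1 differed by 0.48 ± 0.15 (adjusted p = 0.256, limma), Cd200, a membrane glycoprotein, by -1.80 ± 0.49 (adjusted p = 0.226, limma), and Igfbp5 by -2.15 ± 0.52 (adjusted p = 0.190, limma), or -1.10 at its other probe set.

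Several genes had a pattern like that of Krt20. Over the 9 arrays the most like it were Iqgap2 (r = 0.955), a scaffold of the actin cytoskeleton, Ptprd (0.902), a receptor phosphatase, Hey1 (0.899), a Notch target repressor, Adgrv1 (0.899), an adhesion receptor, Zc3hav1l (0.896) and Bmpr1b (0.873), a receptor of bone morphogenetic proteins, among 1644 candidates. Iqgap2 read 6.94 to 7.45 on the arrays labelled WNT4, 7.71 to 7.97 on Cre and 8.03 to 8.80 on GFP. Its groups did not overlap either. Its other probe set had an r of 0.501 with Krt20. The other probe sets of Ptprd had r from -0.256 to 0.864, that of Adgrv1 0.078 and those of Bmpr1b 0.782 to 0.838.

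The genes least like Krt20 were Ak1 (r = -0.969), an adenylate kinase, Ephx1 (-0.950), the microsomal epoxide hydrolase, and Cdkn1a (-0.940), the p21 inhibitor of the cell cycle. Cdkn1a read 12.82, 12.19 and 11.79 on WNT4 1, 2 and 3, 11.43, 11.24 and 10.81 on Cre 1, 2 and 3, and 10.67, 10.38 and 10.11 on GFP 1, 2 and 3 at the probe set with the lowest r. It was high where Krt20 was low, in all 3 groups apart. The other probe set of Ak1 had an r of -0.116 with Krt20, and that of Cdkn1a -0.924. These values of r describe the 9 arrays, which share their group differences and their normalization.

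**Figure D3:**
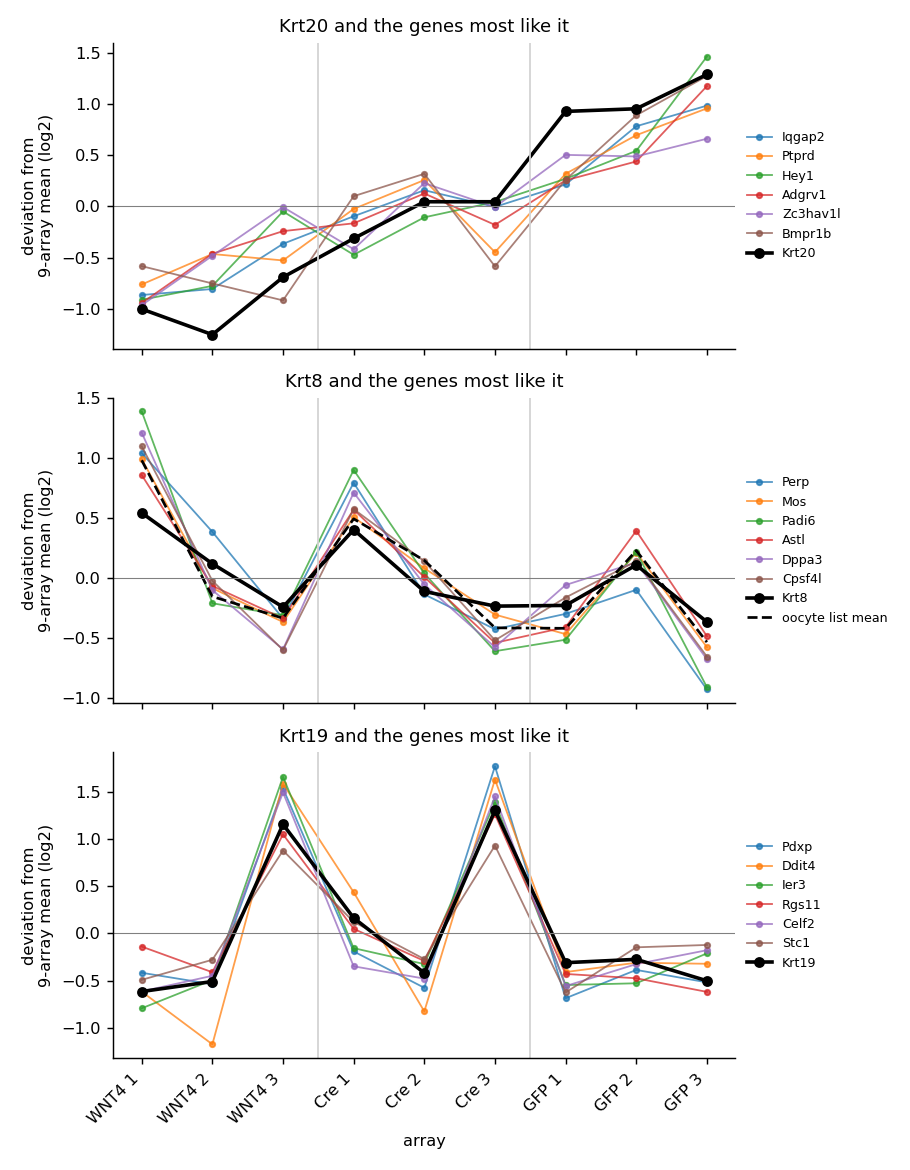
Deviation of each gene from its own mean over the 9 arrays (log2) for Krt20, Krt8 and Krt19 (thick black lines) and the 6 genes most like each (thin lines), with the arrays in the order WNT4, Cre, GFP and lines drawn to guide the eye. Krt20 separates the 3 groups, Krt8 and the mean of the oocyte markers (dashed) peak on WNT4 1, Cre 1 and GFP 2, and Krt19 peaks on WNT4 3 and Cre 3.

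None of the related gene lists held a called gene in any of the 3 comparisons, against 0.0155%, 0% and 0% of all probe sets (WNT4 against GFP, Cre against GFP, WNT4 against Cre). Of 42 other keratins measured, 21 were below the array median on all 9 arrays and 11 above it on all 9. At an unadjusted p under 0.05 there were 0 higher and 2 lower in WNT4 against GFP, where 9.12% of all probe sets were higher and 3.91% lower, and 0 higher and 1 lower in Cre against GFP, where the shares were 1.01% and 1.22%. In WNT4 against Cre 0 were higher and 0 lower, where the shares were 5.07% and 1.17%. The medians were -0.09 and -0.08, beside -0.00 and -0.02 over all probe sets. Krt10, a keratin of differentiated epidermis, differed by 0.08 ± 0.14 between WNT4 and GFP and Krt42, a type I keratin, by -0.02 ± 0.13. Krt78, a type II keratin, differed by -0.20 ± 0.13. None of them passed.

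Other intermediate filaments gave 2 of 15 higher and 1 lower at an unadjusted p under 0.05 in WNT4 against GFP, where 9.12% of all probe sets were higher and 3.91% lower. Lmna, which encodes the nuclear lamins A and C, read 11.17, 10.90 and 10.78 on the arrays labelled WNT4, 10.55, 10.43 and 10.38 on Cre, and 10.01, 10.10 and 10.12 on GFP. All 3 groups were apart, in the order opposite to that of Krt20. The difference from GFP was 0.87 ± 0.11 for WNT4 (adjusted p = 0.0691, limma) and 0.37 ± 0.11 for Cre, with the 5 probe sets at 0.06 to 0.93 for WNT4. Synm, the linker filament synemin, named after its values were seen, read 9.15, 8.04 and 6.92 on WNT4, 6.11, 7.05 and 6.90 on Cre, and 6.79, 5.93 and 6.67 on GFP (1.57 ± 0.51 for WNT4 against GFP, adjusted p = 0.272, limma). Des, the muscle filament desmin, differed by 0.04 ± 0.14, Lmnb1, lamin B1, by -0.09 ± 0.29 and Nes, the progenitor filament nestin, by 0.11 ± 0.16.

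The desmosome is the junction on which keratin filaments end. A list of desmosome genes and of others taken as keratin linkers, 19 measured, had a median of -0.04 in WNT4 against GFP. It was 0.04 in Cre against GFP. At an unadjusted p under 0.05, 3 were higher and 0 lower in WNT4 against GFP (9.12% and 3.91% of all probe sets). In Cre against GFP the counts were 0 and 0 (1.01% and 1.22%). Dsp, the plakin that ties keratins to the junction, differed by 0.54 ± 0.31 between WNT4 and GFP and by 0.51 ± 0.31 between Cre and GFP, while its 3 probe sets ranged from -0.16 to 0.54 and from -0.17 to 0.51. Jup, plakoglobin, differed by -0.26 ± 0.15 and 0.07 ± 0.15, Pkp2, plakophilin 2, by -0.27 ± 0.36 and 0.15 ± 0.36, Plec, plectin, by 0.14 ± 0.11 and 0.07 ± 0.11, and Ktn1, kinectin, by 0.21 ± 0.17 in both. None of them passed, and the groups of each overlapped. Perp differed by 0.81 ± 0.41 between WNT4 and GFP and did not pass either.

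The 4 other uroplakin genes had a median of -0.27 in WNT4 against GFP, with 1 lower at an unadjusted p under 0.05 (3.91% of all probe sets), and -0.12 in Cre against GFP, with 0 (1.22%). Both medians were below 0 under each scaling tried, as were those of the other keratins and other epithelial genes. In WNT4 against GFP the medians of the intermediate filament list, the desmosome and linker list and the cadherin list changed sign between scalings. Upk2 differed by -0.32 ± 0.13 (adjusted p = 0.340, limma), Upk1a by -0.22 ± 0.11 and Upk3bl by -0.37 ± 0.20 between WNT4 and GFP. Over 29 other epithelial genes the medians were -0.07 and -0.04, with 2 lower and 0 higher at an unadjusted p under 0.05 in WNT4 against GFP (3.91% and 9.12% of all probe sets). Epcam, an epithelial adhesion molecule, read 7.42, 8.52 and 8.21 on the arrays labelled WNT4, 8.85, 7.85 and 8.86 on Cre, and 8.64, 8.85 and 9.15 on GFP (-0.83 ± 0.34 for WNT4 against GFP, adjusted p = 0.351, limma). Its other probe set differed by -0.07. Esrp2, an epithelial splicing factor, differed by -0.05 ± 0.11 and Spint2, a protease inhibitor, by 0.07 ± 0.24. In WNT4 against GFP this list ran from -0.83 at Epcam to 0.93 ± 0.44 at Klf5, a Kruppel-like factor named after its values were seen.

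Classical cadherins and factors of the epithelial to mesenchymal transition gave 2 of 14 higher at an unadjusted p under 0.05 in WNT4 against GFP, where 9.12% of all probe sets were higher, and 0 in Cre against GFP (1.01%). Cdh2, the N-cadherin of granulosa cells, read 9.97, 9.80 and 11.07 on the arrays labelled WNT4, 10.57, 10.33 and 10.95 on Cre, and 9.64, 10.31 and 10.42 on GFP, so the groups overlapped (0.16 ± 0.35 for WNT4 against GFP). Snai2, a repressor of Cdh1 known as Slug, read 11.16, 8.08 and 8.74 on WNT4, 8.18, 7.29 and 7.96 on Cre, and 7.90, 7.94 and 7.19 on GFP. The WNT4 arrays were above the GFP arrays, WNT4 1 by far the most (1.65 ± 0.68, adjusted p = 0.355, limma). Zeb1, another repressor of Cdh1, differed by 0.04 ± 0.14 and Acta2, smooth muscle actin, by -0.58 ± 0.57. Markers of theca and stroma averaged 7.73, 6.75 and 7.40 on WNT4 1, 2 and 3, 6.82 to 7.32 on Cre and 6.71 to 7.32 on GFP. The list split on WNT4 1, where Dcn, Lum, Pdgfra, Col3a1, Thy1 and Cyp17a1 were at their highest of the 9 arrays. Cyp17a1 was so by little, at 5.86 against 5.75 on GFP 2, and Col1a2 read 9.70 on both WNT4 1 and WNT4 3. Tagln, Acta2 and Col1a1 were at their lowest on WNT4 1 (8.53, 10.81 and 5.73), and Myh11 and Des were at neither. Whether stromal RNA has a part in the Snai2 value of WNT4 1 was not tested.

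**Figure D4:**
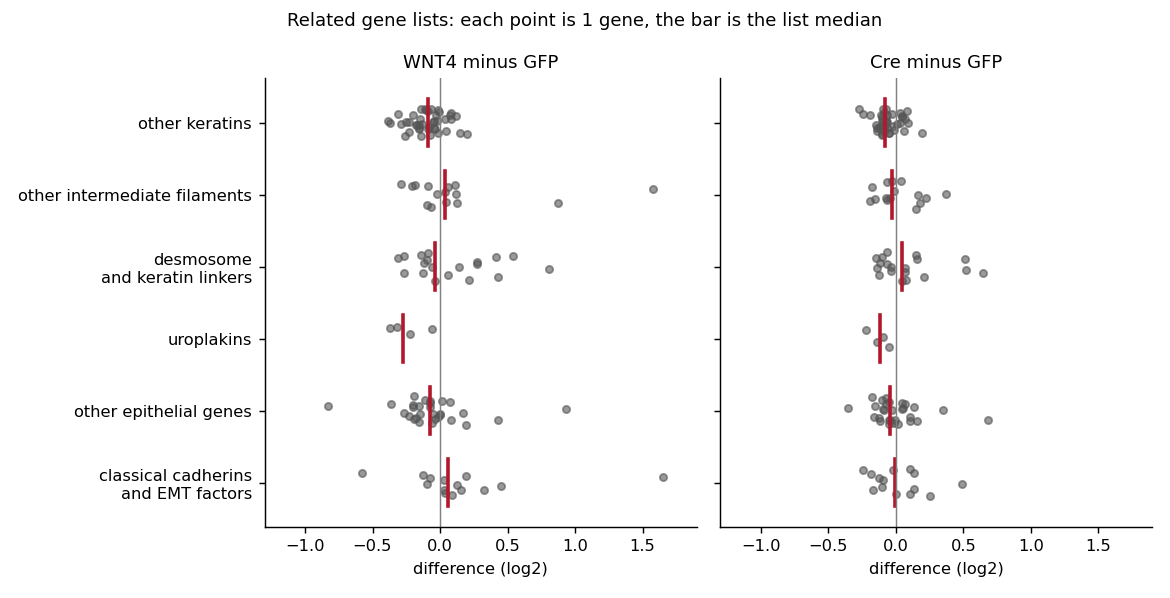
Differences on the log2 scale for WNT4 minus GFP (left) and Cre minus GFP (right) in 6 lists of related genes, where each point is a gene at its probe set with the highest mean and the red bar is the list median. No point passed the test over all probe sets, and the medians lie between -0.27 and 0.06.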

How the data were processed

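Expression was measured on 9 Affymetrix arrays of granulosa cell RNA, 3 each for the WNT4, Cre and GFP viruses, grouped by the titles in the labels. Per the submitters' processing notes, the authors made the deposited log2 values with RMA (version not given in the sources used here), which subtracts background, normalizes arrays against each other and combines probes into sets. The deposited arrays did not share 1 distribution, since their upper quartiles ran from 7.68 to 8.00, so a further quantile normalization could move values. The log2 scale was read from the values (3.46 to 15.3), and array medians ran from 5.44 to 5.54. No arrays shared more than 4.53% equal values.

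Of 45101 probe sets, 64 controls were left out and 45037 tested with limma 3.58.1 in R 4.3.3 (lmFit, eBayes, all 9 arrays, no covariate, two-sided), with Benjamini-Hochberg adjustment over all of them and a call at an adjusted p under 0.05. A ± after a difference is the model's standard error. The smallest p an exact permutation test could give for 1 probe set is 0.1. Symbols came from the platform annotation (34945 probe sets with 1, 932 with several, 9160 with none) and were updated by Entrez ID for 34741.

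Members, gene lists and naming rules were chosen with earlier results of these data known. For each of the 6 lists of related genes the text names the 3 genes with the highest mean, called genes and a fixed set (Jup, Dsp, Cdh2, Des, Lmna, Epcam, Snai2, Zeb1, Wt1), or says how a gene was chosen. Lists of leukocyte and endothelial markers averaged 6.24 to 7.57 and 5.33 to 5.65 over the arrays. Wt1 differed by 0.36 ± 0.41 between WNT4 and GFP.

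Same-numbered arrays had deviations from the group means that correlated at 0.21, 0.24 and 0.77 between WNT4 and Cre. All were above 0.1, which met the rule set for pairing by number, from the data and not the labels. However, WNT4 1 correlated at 0.32 with Cre 2, and WNT4 2 at 0.28 with Cre 1. Only number 3 thus stood out, and a pairing of those groups by number is uncertain. The main fit stayed without the block, also for the printed errors and intervals of WNT4 against Cre, and the block was an alternative. Other pairs did not meet the rule. The fit was tested on simulated data. Alternatives were other normalizations, filters and limma settings, the replicate block, and leaving out arrays.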

Additional observations from a re-analysis of the deposited data

How the results depend on the processing

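The differences of Krt20 kept their sign under all alternatives tried and moved by less than 1 SD of the replicates in each. Leaving out each array in turn gave -2.19 to -1.90 for WNT4 against GFP, -1.20 to -1.01 for Cre against GFP and -1.05 to -0.77 for WNT4 against Cre. With the replicate number as a block the values were as before, -2.04, -1.13 and -0.91, with a standard error of 0.13. Every blocked fit blocked the GFP arrays too, although their pairs with the other groups did not meet the pairing rule. Of 930 values of the 17 member probe sets under alternatives, 910 moved by less than 1 SD, 20 by more, and 0 members other than Krt20 became called in Cre against GFP or WNT4 against Cre. The correlation of Krt8 with Krt18 was 0.56 to 0.78 with an array left out, and that of Krt7 with Krt19 was -0.23 to 0.27, above 0 without GFP 3 alone (0.27). The cause was not tested.

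The count of called probe sets, against which the members are read, was less stable. For WNT4 against GFP the 7 became 17 with arrays centred at their 75th percentile (the median difference over all probe sets was then -0.15), 15 without probe sets of a mean under 6, 10 with the replicate block, 3 after quantile normalization, 1 with an intensity trend, 32 at an adjusted p under 0.10 and 0 when the Cre arrays were left out of the fit. It was 0 to 748 with an array left out (748 without WNT4 2, 9 without GFP 1). It was also 0 in 2 fits added after seeing the data, one lacking every array numbered 3 and the other lacking Cre 3 with WNT4 3. Cre against GFP gave 0 to 1 with an array left out, the 1 without GFP 1, and WNT4 against Cre gave 0 in all of them and with the replicate block. The causes were not tested. Members with low signal, such as Cdh1, Krt7 and Upk3b, could hide changes under the background.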
